A study of Mus musculus with 2 samples.

Results

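The genes described here are 10 genes through which a macrophage senses cholesterol, exports it and stores it: the liver X receptor (LXR) genes Nr1h2 and Nr1h3, the sterol exporters Abca1 and Abcg1, the ubiquitin ligase gene Mylip, the oxysterol enzymes Ch25h and Cyp27a1, and the storage genes Soat1, Nceh1 and Plin2. They were chosen by symbol, each symbol matched 1 gene identifier, and all 10 were found among the 55536 genes of the deposited tables. Polyadenylated RNA came from whole-cell extracts of C57BL/6J macrophages that had been grown from bone marrow and stimulated for 300 min with a dose of 100 ng/mL. The agent is called Lipid A in one label and lipoprotein A in another, so it is named only the stimulus here. There was 1 group of 2 libraries, biological replicates 1 and 2, recorded as different biosamples from 1 donor entry; sex and age were not collected. No unstimulated cells were analysed here, so every value is a level 300 min after the stimulus or a difference between the libraries, and none is a response. Expected counts, the reads or fragments assigned to each feature, summed to 38078399 in replicate 1 and 63705317 in replicate 2 over all rows.

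LXRs are nuclear receptors that pair with retinoid X receptors and are switched on by oxysterols, which are oxidised forms of cholesterol. In macrophages they raise transcription of Abca1 and Abcg1, whose products pass cholesterol to apolipoprotein A-I and to high-density lipoprotein, and of Mylip (also called IDOL), whose product marks lipoprotein receptors for breakdown. Cholesterol that is not exported is esterified by the Soat1 enzyme and kept in lipid droplets coated by the Plin2 protein, and ester hydrolases such as the Nceh1 product release it again.

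The storage gene Plin2 stood far above the rest and Mylip was lowest. All 10 genes reached 1 TPM (the abundance of an RNA per length, relative to all RNAs of its library) in both libraries, a level that 18.0% of all genes and 42.4% of nuclear protein-coding genes reached. All 10 also reached 10 TPM, as did 23.5% of nuclear protein-coding genes (9.64% of all genes), and 3 of them, Abcg1, Soat1 and Plin2, reached 100 TPM, as did 5.03% (2.08% of all genes). The genes were picked with earlier results of these data in view, so these counts are descriptions. Their medians were 59.5 and 56.2 TPM in replicates 1 and 2, against a median mean level of 14.4 TPM over the 9982 genes at 1 TPM in both. Together they held 0.13% of all TPM in replicate 1 and 0.114% in replicate 2, and Plin2 alone made up 61.2% and 49.6% of that sum.

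In rising order of mean level the genes ran Mylip, Ch25h, Cyp27a1, Abca1, Nr1h2, Nr1h3, Nceh1, Abcg1, Soat1 and Plin2. Of the 9 pairs of neighbours in this order, 3 had library ranges that overlapped: Ch25h with Cyp27a1, Cyp27a1 with Abca1, and Nr1h2 with Nr1h3. In those pairs the order also differed between the libraries, so in the gene TPM these neighbours did not differ beyond their spread. The other 6 pairs kept their order in both libraries in the gene TPM. Over transcripts with a complete coding sequence alone, defined below, the order changed in places. Soat1 (81.0 and 91.3 TPM) then lay below 100 TPM and below Abcg1 (103 and 120 TPM) in replicates 1 and 2. In replicate 1 Nr1h3 (69.1 TPM) then lay above Nceh1 (64.0 TPM), and Abca1 (41.5 TPM) above Nr1h2 (34.8 TPM). The overlapping pairs then kept 1 order in both libraries. Cyp27a1 (14.03 and 24.46 TPM) lay below Ch25h (14.12 and 30.74 TPM) and below Abca1 (41.46 and 25.19 TPM), and Nr1h2 lay below Nr1h3.

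**Figure D1:**
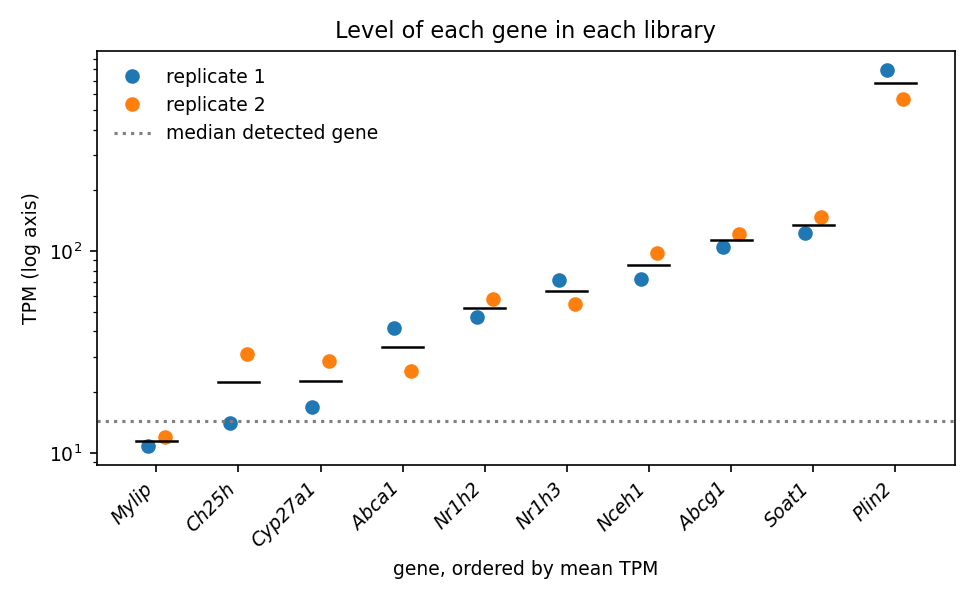
Level of each of the 10 genes in TPM (log axis), replicate 1 in blue, replicate 2 in orange, the mean of the 2 libraries as a black bar and the median detected gene as a dotted line at 14.4 TPM. Plin2 lies at 566 TPM or more in both libraries, and Mylip is the only gene whose points both lie below the dotted line.

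Of the receptor genes, Nr1h3 was the higher in replicate 1 and the 2 were nearly level in replicate 2. Nr1h2 encodes LXR beta, which is expressed in most tissues (ENSMUSG00000060601.13, chromosome 7, 44549616 to 44553951, minus strand, mm10), and stood at 47.0 and 57.7 TPM in replicates 1 and 2, from 1635 and 3296 counts. Nr1h3 encodes LXR alpha, which is high in liver, fat and macrophages (ENSMUSG00000002108.10, chromosome 2, 91184061 to 91202834, minus strand), and stood at 72.0 and 54.6 TPM, from 2761 and 3384 counts. The means were 52.4 ± 7.59 TPM and 63.3 ± 12.3 TPM (SD, n = 2), so the ranges of the receptors overlapped. The log2 ratio of Nr1h3 over Nr1h2 was 0.62 in replicate 1 and -0.08 in replicate 2.

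The sign of that ratio in replicate 2 depended on which transcripts were counted. Of the TPM of Nr1h2, which has 18 annotated transcripts, 73.9% in replicate 1 and 76.0% in replicate 2 lay in transcripts with a complete coding sequence (at least 90% of the longest one of the gene). For Nr1h3, with 8 transcripts, the shares were 96.0% and 92.7%. Over such transcripts alone the receptors stood at 34.8 and 43.9 TPM for Nr1h2 and at 69.1 and 50.6 TPM for Nr1h3, and the log2 ratio was 0.99 and 0.21, positive in both libraries. In the second quantification it was 0.66 and -0.36 over all transcripts and 1.09 and 0.28 over those with a complete coding sequence. This selection of transcripts was added after the data were seen. Retained-intron transcripts, which keep an intron and are not annotated as coding, held 8.31% and 13.6% of the TPM of Nr1h2. Nr1h2-209, one of these, held 10.15% in replicate 2, from 25.82 counts, and 0 in replicate 1. Its 5.86 TPM in replicate 2 exceed the gap between the receptors there.

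Within Nr1h3 the transcripts that share a coding sequence of 1335 bases were used unevenly. Nr1h3-201 held 58.8% and 49.1% of the TPM in replicates 1 and 2, Nr1h3-202 held 22.0% and 41.8%, and Nr1h3-204 held 15.2% and 1.74%. Their first bases lie at 91195116, 91195151 and 91195035 on the minus strand, so they begin within a short stretch of each other. By mean share over the libraries, the second quantification gave the same leading transcript for each receptor. In its replicate 2, however, the retained-intron Nr1h2-209 held 29.3% of the TPM of Nr1h2, just above Nr1h2-201 at 28.6%. Retained-intron transcripts together held 13.3% of Nr1h2 in replicate 1 and 33.4% in replicate 2 of that quantification. Gm13783, a noncoding gene whose span overlaps that of Nr1h3 on the same strand, had 3 and 9 counts.

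Windows of 250 bases before the start of the receptor genes are shown because these genes are the closest relatives of the set and had overlapping levels. They come from RefSeq on GRCm38.p6, the build also called mm10, in which 9 of the 10 genes were matched by symbol (all but Abcg1). Sequences run 5′ to 3′ on the strand of the gene, and capitals mark CCGGAAG on either strand, a core bound by ETS family factors. The first window is chr7:44553966-44554215 and the second chr2:91195117-91195366, both on the minus strand.
Nr1h2: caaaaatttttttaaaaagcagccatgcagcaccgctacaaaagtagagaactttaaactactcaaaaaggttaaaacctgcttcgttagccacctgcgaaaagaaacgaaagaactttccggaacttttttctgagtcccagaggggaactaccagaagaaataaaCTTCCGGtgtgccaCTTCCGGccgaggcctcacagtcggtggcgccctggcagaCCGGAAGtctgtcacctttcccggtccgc
Nr1h3: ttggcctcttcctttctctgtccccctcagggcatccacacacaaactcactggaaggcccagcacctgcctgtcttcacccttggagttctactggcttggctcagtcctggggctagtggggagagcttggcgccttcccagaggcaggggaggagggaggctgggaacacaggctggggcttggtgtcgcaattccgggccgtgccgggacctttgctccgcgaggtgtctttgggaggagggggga
The Nr1h2 window has 3 such matches, beginning 83, 69 and 29 bases before the start, and the Nr1h3 window has none; 6.91% of 32851 RefSeq windows of this length have 1 or more. The windows have a GC content of 48.4% and 63.2%.

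Abcg1 exceeded Abca1 in both libraries. Abca1 (ENSMUSG00000015243.4, chromosome 4, 53030787 to 53159895, minus strand) encodes the transporter that starts high-density lipoprotein formation. It stood at 41.5 and 25.3 TPM in replicates 1 and 2, a mean of 33.4 ± 11.4 TPM (SD, n = 2). Abcg1 (ENSMUSG00000024030.7, chromosome 17, 31057675 to 31117988, plus strand), which loads sterol onto existing particles, stood at 105 and 122 TPM, a mean of 113.6 ± 11.8 TPM (SD, n = 2). Every Abcg1 value lay above every Abca1 value. Per length, Abcg1 was 2.54 times Abca1 in replicate 1 and 4.82 times in replicate 2, and the log2 ratio of Abca1 over Abcg1 was -1.81 ± 0.654 (SD, n = 2). That ratio was -1.78 over transcripts with a complete coding sequence and -1.85 in the second quantification, so its direction held in each.

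Both exporters were carried almost wholly by a single coding transcript. Abca1-201, with 50 exons, held 100% and 99.6% of the TPM of its gene, and Abcg1-201, with 15 exons, held 97.7% and 98.7%. In the second quantification Abcg1-201 held 88.7% in replicate 1, where the partial coding transcript Abcg1-203 was assigned 8.38 TPM, and 98.5% in replicate 2. Because Abca1 is long, its 10367 and 10386 counts exceeded those of Nr1h3 while its TPM was lower.

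The window before Abca1, the textbook LXR target, is shown because this gene had the lowest ratio of replicate 2 over replicate 1 among the 10, and that before Ch25h because it had the highest. Both were picked after their values were seen. Capitals mark, for Abca1, the match to a direct repeat of the LXR half-site AGGTCA spaced by 4 bases of any kind, searched on both strands with up to 3 of its 12 fixed letters differing, and for Ch25h the cyclic AMP response element TGACGTCA. The windows are chr4:53159896-53160145 and chr19:34475149-34475398, both on the minus strand.
Abca1: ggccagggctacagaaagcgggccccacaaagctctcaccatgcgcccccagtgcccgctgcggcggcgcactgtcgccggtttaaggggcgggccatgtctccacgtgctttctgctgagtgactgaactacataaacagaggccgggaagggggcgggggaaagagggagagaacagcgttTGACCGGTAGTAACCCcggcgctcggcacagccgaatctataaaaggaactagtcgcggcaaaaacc
Ch25h: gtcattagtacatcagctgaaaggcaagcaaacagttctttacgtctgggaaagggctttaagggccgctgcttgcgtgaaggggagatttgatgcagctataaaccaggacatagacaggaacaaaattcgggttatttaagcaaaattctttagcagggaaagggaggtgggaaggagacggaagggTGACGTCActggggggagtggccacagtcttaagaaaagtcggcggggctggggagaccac
In Abca1 the repeat lies on the strand opposite the gene, 67 to 52 bases before the start, with 3 letters differing; 18.5% of all RefSeq windows of this length hold a match as loose, and no window of the other matched genes did. The letters TATAAA begin 29 bases before the start of Abca1, 32 before that of Mylip and 151 before that of Ch25h (12.4% of all windows hold those letters on either strand). The response element in Ch25h lies 61 to 54 bases before the RefSeq start, and 1.55% of all windows hold one. Also searched on both strands were CACGTG, found in Abca1 and Nceh1 and in 6.02% of all windows, and GGGCGG, found in Abca1, Mylip and Cyp27a1 and in 32.7%. The motifs were chosen after the sequences had been read, and the absence of a match says only that the letters are not in that window.

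Mylip was the lowest of the 10 genes and, in the gene TPM, the one with the smallest fold between the libraries; in the second quantification that was Abcg1, at 109.40 and 109.44 TPM. It is annotated on chromosome 13, 45389742 to 45412022, plus strand (ENSMUSG00000038175.10), and stood at 10.84 and 12.02 TPM in replicates 1 and 2, from 752 and 1388 counts, a mean of 11.4 ± 0.834 TPM (SD, n = 2). Both values lay below the median detected gene. Mylip-201 held 98.4% and 98.8% of it.

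The oxysterol enzymes were among the lowest of the 10 genes, though above 60.9% (Ch25h) and 61.2% (Cyp27a1) of detected genes, and both were higher in replicate 2. Ch25h (ENSMUSG00000050370.5, chromosome 19, 34473778 to 34475164, minus strand) encodes cholesterol hydroxylase of the endoplasmic reticulum, a gene known to respond to interferon, and has 1 exon and 1 annotated transcript. It stood at 14.1 TPM in replicate 1, from 392 counts, and at 30.7 TPM in replicate 2, from 1443 counts. The mean was 22.4 ± 11.8 TPM (SD, n = 2), the largest SD relative to its mean among the 10 genes. A bidirectional-promoter long noncoding gene, Gm26902, overlaps 357 bases of Ch25h on the opposite strand and had 13 and 48 counts (0.22 and 0.58 TPM). Whether the counting used strand is not given in the sources used here, so reads of the overlapping stretch cannot be told apart.

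Cyp27a1 (ENSMUSG00000026170.6, chromosome 1, 74713574 to 74737892, plus strand), the mitochondrial sterol hydroxylase, stood at 16.8 and 28.6 TPM from 598 and 1727 counts, a mean of 22.7 ± 8.34 TPM (SD, n = 2). The coding transcript Cyp27a1-201 held 83.4% and 85.5%, and the remaining 16.6% and 14.5% lay in retained-intron transcripts. Those made up only 5.19% and 4.08% of its counts, since they are short.

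Among the storage genes the droplet coat gene led, then the esterifying enzyme, then the hydrolase. Plin2 (ENSMUSG00000028494.12, chromosome 4, 86648386 to 86670060, minus strand) stood at 795 and 566 TPM, a mean of 680 ± 162 TPM (SD, n = 2), above 97.8% of the 9982 detected genes. Soat1 (ENSMUSG00000026600.12, chromosome 1, 156424525 to 156474331, minus strand) stood at 123 and 147 TPM, a mean of 135 ± 16.8 TPM (SD, n = 2). Nceh1 (ENSMUSG00000027698.14, chromosome 3, 27182965 to 27284608, plus strand) stood at 72.4 and 97.4 TPM, a mean of 84.9 ± 17.6 TPM (SD, n = 2). The lowest Soat1 value lay above the highest Nceh1 value, and the log2 ratio of Soat1 over Nceh1 was 0.77 in replicate 1 and 0.59 in replicate 2, a mean of 0.68 ± 0.122 (SD, n = 2).

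The gap between Soat1 and Nceh1 narrowed when short transcripts were left out. Only 65.8% and 62.1% of the TPM of Soat1 lay in transcripts with a complete coding sequence, although those took 94.0% and 89.8% of its counts. Soat1-206, a partial coding transcript of 366 bases, held 23.4% of the TPM in replicate 1 from 77.91 counts and 7.69% in replicate 2. Soat1-203, a retained-intron transcript of 509 bases, held 0 in replicate 1 and 17.5% in replicate 2 from 279.57 counts. With complete coding sequences alone Soat1 stood at 81.0 and 91.3 TPM and Nceh1 at 64.0 and 85.3 TPM. The ranges then overlapped, and the log2 ratio was 0.34 and 0.10, a mean of 0.22 ± 0.171 (SD, n = 2).

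Plin2 and Nceh1 also carried transcripts with no complete coding sequence. The coding Plin2-201 held 75.5% and 73.4% of the TPM of Plin2. The partial coding Plin2-207 held 17.8% and 8.71%, and the processed transcript Plin2-208 held 4.93% and 16.7%, so their order differed between the libraries. For Nceh1 the processed transcript Nceh1-205 held 11.7% and 12.1%, from 63.73 and 160.92 counts.

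**Figure D2:**
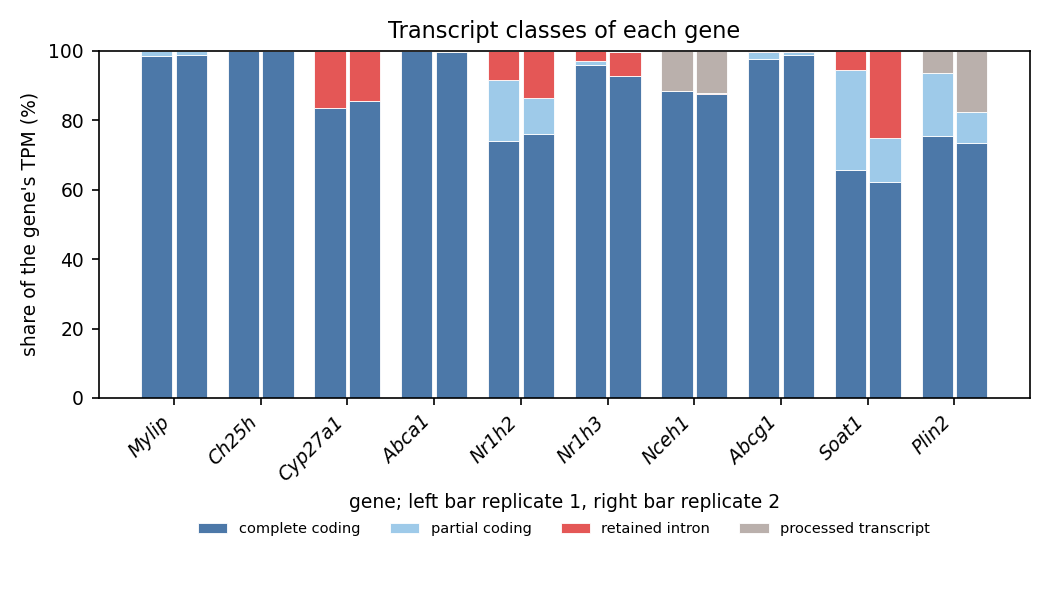
Share of the TPM of each gene, in percent, held by transcripts of each annotated class, with replicate 1 as the left bar and replicate 2 as the right bar of each gene. Transcripts with a complete coding sequence hold 62.1% of Soat1 in replicate 2 and over 90% of Mylip, Ch25h, Abca1, Nr1h3 and Abcg1 in both libraries; the retained-intron part of Soat1 is 5.59% in replicate 1 and 24.99% in replicate 2.

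The libraries were then compared by counts, scaled with the TMM method over 12226 genes with enough counts. With 1 library on each side there is no replicate check, so a gene is called different at 1.5-fold with no p-value, and intervals cover counting error only. By this rule 2 of the 10 genes were higher in replicate 2, against 16.7% of all genes, and 0 were lower, against 19.1% (35.8% in either direction). Ch25h was 2.49-fold higher in replicate 2, with a log2 ratio of 1.31 (95% exact binomial interval 1.16 to 1.48), and 5.63% of all genes had a larger ratio in either direction. Cyp27a1 was 1.95-fold higher, with a log2 ratio of 0.97 (0.83 to 1.10), and 14.3% of genes had a larger one. At 2-fold only Ch25h was left, against 5.25% of genes higher and 7.94% lower. A share of 2 in 10 is near the background, so it is no result about these genes as a set.

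Nceh1 and Abca1 lay just inside the 1.5-fold limit in opposite directions. Nceh1 had a log2 ratio of 0.58 (0.54 to 0.62), and Abca1, with nearly equal counts from libraries of unequal depth, had -0.56 (-0.60 to -0.52). The other 6 genes had ratios of 0.45 for Nr1h2, 0.39 for Abcg1, 0.33 for Soat1, 0.32 for Mylip, -0.27 for Nr1h3 and -0.35 for Plin2. Thus 7 of the 10 were above 0 and 3 below, with a median of 0.36 against -0.01 over all genes. The median size of a ratio over all genes, regardless of direction, was 0.43, and 5 of the 10 genes lay below that size, namely Abcg1, Plin2, Soat1, Mylip and Nr1h3. The receptors and the exporters each split, with Nr1h2 and Abcg1 above 0 and Nr1h3 and Abca1 below 0. The directions of all 10 genes held under each of the 8 ways of computing the ratio, most of which start from the same counts. Some ratios came close to 0, with Abcg1 at 0.12 and Mylip at 0.11 once the trend of GC content and length was removed.

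**Figure D3:**
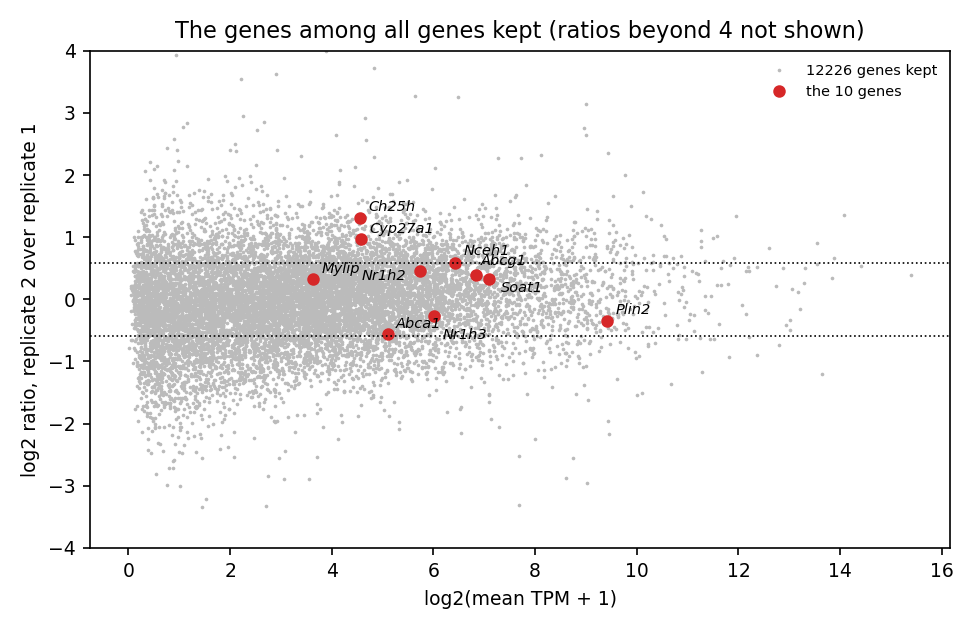
Ratio of replicate 2 to replicate 1 in TMM-scaled counts (log2), plotted against log2(mean TPM + 1) for 12226 genes (grey) and the 10 genes (red), with dotted lines at 1.5-fold. Ch25h and Cyp27a1 lie above the upper line, and Nceh1 and Abca1 lie on the inner side of the lines.

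Abca1 was past 1.5-fold, lower in replicate 2, in 3 of the 8 computations, at -0.74 with total counts, -0.72 with the trend of GC content and length removed and -0.69 by log2(TPM + 1). With total counts 27.0% of all genes were lower by 1.5-fold and 10.5% higher, with the trend removed 14.8% in each direction, and by log2(TPM + 1) 18.1% lower and 11.0% higher. Scaling by total counts moved the median of all genes to -0.19, and log2(TPM + 1) moved it to -0.10. Nceh1 was past 1.5-fold, higher in replicate 2, in 4 of 8, among them the second quantification at 0.61, where 16.8% of genes were higher and 19.6% lower, and the GC and length fit at 0.68. Ch25h and Cyp27a1 were past 1.5-fold in all 8.

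**Figure D4:**
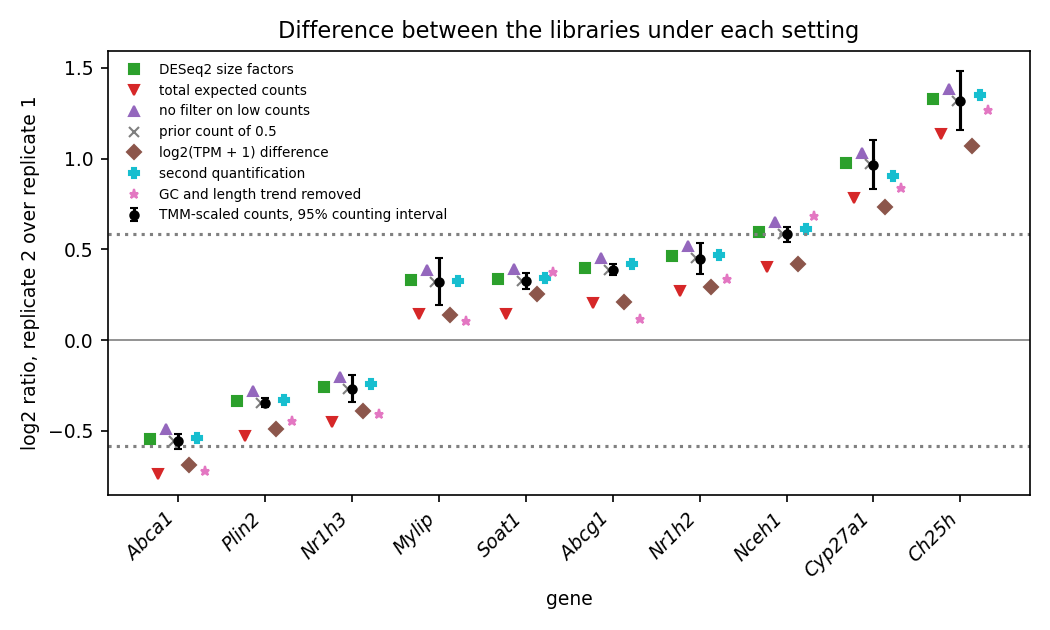
Log2 ratio, replicate 2 over replicate 1, of each gene under the 8 computations, with black points and 95% counting intervals for TMM-scaled counts, coloured markers for the others and dotted lines at 1.5-fold. The ranges run from 1.07 to 1.38 for Ch25h and from -0.74 to -0.49 for Abca1, and no gene crosses 0.

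Markers of other cells differed between the libraries beside these ratios. All 8 macrophage markers reached 1 TPM in both libraries, with summed levels of 14754 and 20713 TPM. Lyz2 (10495 and 13567 TPM) and Cd68 (2496 and 5400 TPM) held most of that sum, while Adgre1 (748 and 479 TPM), Fcgr1 (481 and 381 TPM) and Mertk (195 and 152 TPM) were lower in replicate 2. Of 8 neutrophil markers 3 reached 1 TPM in both, with sums of 507.5 and 18.7 TPM in replicates 1 and 2 and Ly6g at 0 in both. Of 6 adipocyte markers only Fabp4 and Pparg, which macrophages also express, reached 1 TPM, with sums of 153 and 40.3 TPM and Adipoq, Lep, Plin1 and Cidec at 0 in both. None of 5 hepatocyte markers had a count. Of 5 dendritic cell markers 1, Ccr7, reached 1 TPM in both (sums 12.25 and 3.77 TPM, none at 0), and none of 5 fibroblast (sums 1.65 and 0.88 TPM, none at 0) or 6 T and B cell markers (sums 0.52 and 0.17 TPM, Cd3g at 0 in both) did. In bulk RNA fewer cells of a type and less RNA per cell cannot be told apart. The part of these cells in the ratios was not tested.

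LXR works with partners, and those were present except for Rxrg. In both libraries 15 of 16 partner and coregulator genes reached 1 TPM, against 42.4% of nuclear protein-coding genes. The list had medians of 10.3 and 17.9 TPM. By mean level the corepressor Ncor1 was highest at 62.2 and 142 TPM, then the coactivator Ncoa3 at 47.4 and 91.7 TPM, Prmt1 at 39.9 and 23.7 TPM and the acetyltransferase Ep300 at 23.9 and 38.6 TPM, with Ep300 above Prmt1 in replicate 2. The retinoid X receptor genes themselves were low, with Rxra at 5.8 and 4.36 TPM and Rxrb at 6.98 and 4.49 TPM, below both LXR genes in each library. Rxrg had 0 counts in either library, so a level of at most 0.0761 and 0.0454 TPM (3 counts) is allowed. Of the 15 with a ratio 8 were higher by 1.5-fold in replicate 2 and 1 was lower, against 16.7% and 19.1% of all genes. Those past 2-fold were Ncoa6 (log2 ratio 1.40), Gps2 (1.34) and Ep300 (1.04).

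The other LXR targets ranged from the abundant Apoe to Abcg5, which had no counts. At least 1 TPM was found in both libraries for 14 of 20, against 42.4% of nuclear protein-coding genes. At least 100 TPM was found for 6, against 5.03% of those genes. The list medians were 9.91 and 11.2 TPM. Apoe, the lipoprotein ligand that accepts exported cholesterol, stood at 10845 and 8119 TPM, far above Abca1 and Abcg1. By mean level Lpl, a lipase, followed at 813 and 235 TPM, Cd5l at 645 and 281 TPM and the phospholipid transfer protein Pltp at 475 and 331 TPM, an order that was reversed in replicate 2. The 0 counts of Abcg5 set a limit of 0.103 and 0.0611 TPM. Of the 16 with a ratio 6 were higher by 1.5-fold in replicate 2 and 2 were lower, against 16.7% and 19.1% of all genes. The lower ones were Lpl at a log2 ratio of -1.62 and Cd5l at -1.02, while the desaturase Scd1, at 0.92 and 8.64 TPM from 105 and 1037 counts, had the highest ratio of the list at 2.72. Targets thus differed between the libraries in opposite directions, and the ratios of Abca1 and Abcg1 also had opposite signs.

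Of 19 efflux and transport genes, which move cholesterol within the cell or out of it, 17 were at 1 TPM or more in each library, against 42.4% of nuclear protein-coding genes (medians 12.4 and 17.8 TPM). The lysosomal sterol carrier Npc2 led at 762 and 699 TPM, then the acid lipase Lipa at 411 and 428 TPM, Npc1 at 88.3 and 105 TPM and Stard3 at 88.5 and 93.4 TPM. These 4 had log2 ratios from 0.04 to 0.32, none past 1.5-fold, and with the GC and length trend removed Npc2 (-0.19) and Stard3 (-0.08) lay below 0. Over the list 6 of 17 were higher by 1.5-fold in replicate 2, against 16.7% of all genes. In the other direction 1 was lower, Cav1 at -1.11, against 19.1% of all genes. Abca2 was past 2-fold at 1.24. Gramd1c was lowest, at 0.11 and 0.02 TPM.

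Of 13 other genes of oxysterol metabolism 5 were at 1 TPM or more in each library, against 42.4% of nuclear protein-coding genes (medians 0.86 and 0.35 TPM). By mean level the sterol-sensing Insig1 (35.2 and 59.1 TPM) and Insig2 (37.0 and 25.1 TPM) were highest, then Hsd3b7 (15.45 and 8.91 TPM) and Fdx1 (6.8 and 3.3 TPM), the ferredoxin that passes electrons to mitochondrial cytochromes such as the Cyp27a1 product. Cyp46a1 had 0 counts, a limit of 0.136 and 0.0796 TPM. Of 8 with a ratio 2 were higher by 1.5-fold in replicate 2 and 3 were lower, against 16.7% and 19.1% of all genes. Gpr183, the receptor for a dihydroxylated product of the Ch25h pathway, had a log2 ratio of -1.99 with 1.67 and 0.35 TPM. Its values rest on only 102 and 36 counts in replicates 1 and 2. Gpr183 and Ch25h thus differed between the libraries in opposite directions, and a link between the 2 was not tested.

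Of 8 genes that work with Mylip 4 reached 1 TPM in both libraries, near the 42.4% of nuclear protein-coding genes that did. The ubiquitin-conjugating enzymes Ube2d3, Ube2d2a and Ube2d1 stood at 585 and 1425, 140 and 163, and 45.4 and 91.9 TPM. Of its substrates, Lrp8 stood at 1.0 and 0.46 TPM and Vldlr at 0.06 TPM from 8 counts in replicate 1 and 0 counts in replicate 2. Of 6 with a ratio 4 were higher by 1.5-fold in replicate 2 and 1 was lower, against 16.7% and 19.1% of all genes. Ube2d1 (1.24) and Lrp8 (-1.03) were past 2-fold on the log2 ratio. Mylip itself was below these 3 conjugating enzymes in both libraries.

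Among the other ester and droplet genes, 11 of 23 were at 1 TPM or more in each library (medians 0.8 and 0.41 TPM). That is near the 42.4% of nuclear protein-coding genes at this level. By mean level the acyl-CoA synthetase Acsl1 led at 56.05 and 57.2 TPM, then the triglyceride lipase Pnpla2 at 30.25 and 64.6 TPM, Bscl2 at 40.0 and 47.4 TPM and Mgll at 31.1 and 14.9 TPM, and in replicate 2 Pnpla2 was above Acsl1. Beside Plin2, of the other perilipin genes only Plin3 reached 1 TPM, at 9.75 and 6.86 TPM, and Plin1, Plin4 and Plin5 had at most 1 count in a library. Soat2, the relative of Soat1, had 0.04 and 0.11 TPM. These family members were picked after their values were seen. Of 12 with a ratio 3 were higher by 1.5-fold in replicate 2 and 3 were lower, against 16.7% and 19.1% of all genes. Past 2-fold were Hilpda at -2.13 and the hormone-sensitive lipase Lipe at 1.03. Aadac had 0 counts, a limit of 0.249 and 0.144 TPM.

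**Figure D5:**
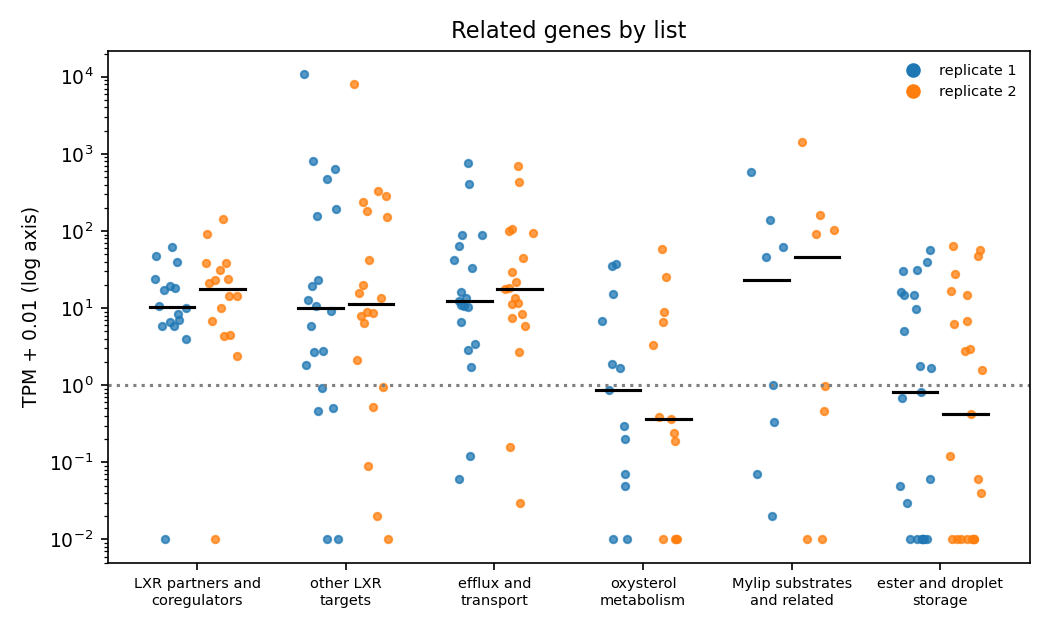
Level of each gene of the 6 related lists on a log axis (TPM + 0.01); blue points are replicate 1, orange points replicate 2, black bars at the median of each list and the dotted line at 1 TPM. The medians of oxysterol metabolism and of ester and droplet storage lie below the dotted line in both libraries, and the highest points are those of Apoe.

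Over the 99 related genes as a whole 66 reached 1 TPM in both libraries, against 42.4% of nuclear protein-coding genes. Of 74 with enough counts 29 were higher by 1.5-fold in replicate 2 and 11 were lower, with a median log2 ratio of 0.32. Over all genes the shares were 16.7% and 19.1%, with a median of -0.01. The lists were drawn up with earlier results of these data known, and no test was made of that difference. Removal of the GC and length trend took some related genes across the 1.5-fold limit, such as Ncor1 (0.73 to 0.57) and Rxra (-0.48 to -0.74). The counts given here are not those with the trend removed.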

How the data were processed

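The authors deposited, per library, a gene table, a transcript table in the layout of RSEM and a transcript table in the layout of kallisto (the second quantification), on mm10 with annotation M21 per the file notes; the tools, their versions and the strand setting were not stated in the notes or labels. The deposited expected counts are unnormalized, and can be fractional; their deposited posterior SD is listed as 0 for all 10 genes. Deposited TPM and FPKM are scaled by length and by library total, TPM over all rows, and the deposited percent column gives each transcript's share of its gene's TPM. Rows that are no gene held 0.132% and 0.0882% of expected counts in replicates 1 and 2 and were left out.

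Counts were rounded, filtered with filterByExpr (12226 genes) and scaled by TMM in edgeR 4.0.16 (R 4.3.3); ratios use a prior count of 2. The calculation was tested on simulated data. Intervals are exact binomial at 95%, and 0 counts allows 3; both cover counting error only. Whether the cultures were separate is not stated, so SDs may be technical. GC content and length came from GENCODE transcripts.

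The 10 genes and the related lists were chosen with earlier results of these data known. Named from each list are its 4 highest, its lowest, and genes past 2-fold with 100 or more summed counts (3 of these are not reported here); Plin1, Plin3, Plin4, Plin5, Soat2, Vldlr, Rxra and Rxrb were added after their values were seen. Alternatives were the second quantification, FPKM, TPM rescaled over nuclear protein-coding genes, DESeq2 1.42.0 size factors, total counts, no filter, a prior count of 0.5, log2(TPM + 1), and removal of a GC and length trend (splines with 5 degrees of freedom).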

Additional observations from a re-analysis of the deposited data

How the results depend on the processing

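The direction of the ratio between the libraries of each of the 10 genes, and the order of Abcg1 over Abca1 and of Soat1 over Nceh1, was the same under all alternatives run. For the ratios of the related genes only removal of the GC and length trend was tried. Among those named it turned the sign of small ratios. These went from 0.04 to -0.19 for Npc2, from 0.06 to -0.08 for Stard3 and from 0.18 to -0.04 for Acsl1. It also brought Ncor1 (0.73 to 0.57) and Fdx1 (-0.59 to -0.50) inside the 1.5-fold limit. Rxra (-0.48 to -0.74), Rxrb (-0.52 to -0.72) and Hsd3b7 (-0.57 to -0.70) moved past it, lower in replicate 2. The log2 ratio of Soat1 over Nceh1 moved from 0.68 to 0.22 when only transcripts with a complete coding sequence were summed, and to 0.27 for such transcripts in the second quantification, because short transcripts of Soat1 drop out. Over transcripts with a complete coding sequence Soat1 also lay below Abcg1, in both libraries and both quantifications. Rescaling TPM over nuclear protein-coding genes moved the median level of the 10 genes from 57.9 to 69.8 TPM. At 2-fold 1 gene in place of 2 was higher in replicate 2. With total counts, with log2(TPM + 1) and with the GC and length trend removed, 1 gene (Abca1) in place of 0 was lower by 1.5-fold; the cause was not tested. Using replicate 1 or 2 alone, the log2 ratio of Nr1h3 over Nr1h2 was 0.62 or -0.08, that of Abca1 over Abcg1 -1.34 or -2.27 and that of Soat1 over Nceh1 0.77 or 0.59. No paired analysis was possible because the series holds 1 group. The 10 genes had 392 or more counts, but shares of short transcripts rest on as few as 25.82 (Nr1h2-209), and genes at 0 counts are bounded only by the limits given.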
